A study of Mus musculus with 12 samples.

Results

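The genes described here are *Ryr1*, *Ryr2*, *Ryr3*, *Itpr1*, *Itpr2*, and *Itpr3*, which encode the 3 ryanodine receptors and the 3 inositol trisphosphate (IP3) receptors. They were taken by symbol as the whole of both families, 6 of the 55418 genes counted, with earlier results of these data known. All 6 passed the filter on low counts in each comparison. RNA came from the brainstem of 12 outbred CFW mice at P15, with 1 library per mouse. Saline or 15 mg/kg morphine had been injected 2 times daily from P1 to P14, and tissue was taken 16 h after the last injection, in spontaneous withdrawal. The groups were 3 saline females (mice 4, 5, and 6), 3 saline males (mice 1, 2, and 3), 3 morphine females (mice 1, 2, and 3), and 3 morphine males (mice 4, 5, and 6). All 4 groups were of the same outbred stock and received repeated injections. The numbers only name mice and do not pair them.

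Ryanodine and IP3 receptors are large tetrameric channels in the membrane of the endoplasmic reticulum that let stored calcium into the cytosol. Ryanodine receptors open when calcium rises beside them or, in skeletal muscle, when they are pulled open by a voltage sensor. IP3 receptors open when a receptor coupled to Gq activates phospholipase C and IP3 is formed. *Ryr1* is the form of skeletal muscle, *Ryr2* is the form of the heart and is also the main form in much of the brain, and *Ryr3* is found at lower levels in many tissues. *Itpr1* is the main neuronal IP3 receptor and is very abundant in cerebellar Purkinje cells, *Itpr2* is the form best known in astrocytes and heart, and *Itpr3* is best known in epithelia and taste cells.

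All 6 are protein-coding genes with long transcripts. On GRCm38 with GENCODE M21, *Ryr1* (ENSMUSG00000030592) lies on chromosome 7 from 29003344 to 29125179, *Ryr2* (ENSMUSG00000021313) on chromosome 13 from 11553102 to 12106945, and *Ryr3* (ENSMUSG00000057378) on chromosome 2 from 112631355 to 113217096, all on the minus strand. *Itpr1* (ENSMUSG00000030102) lies on the plus strand of chromosome 6 from 108213096 to 108551109, *Itpr2* (ENSMUSG00000030287) on its minus strand from 146108299 to 146502223, and *Itpr3* (ENSMUSG00000042644) on the plus strand of chromosome 17 from 27057304 to 27122223. Their annotated exons, merged over all transcripts, span 21.84 kb in *Ryr1*, 28.79 kb in *Ryr2*, 18.98 kb in *Ryr3*, 18.32 kb in *Itpr1*, 14.80 kb in *Itpr2*, and 9.02 kb in *Itpr3*. Exon length was thus at the 88.9th percentile of the 18012 genes tested for *Itpr3* and between the 97.6th and 99.9th percentiles for the other 5. The exons of *Ryr3* overlap 916 bases of *Aven*, a gene on the opposite strand at 9.42 to 14.3 CPM, and no strand setting of the counting was given, so reads in that stretch cannot be assigned to 1 of the 2 genes. The genes overlapping the exons of *Ryr1*, *Itpr1*, and *Itpr3* had at most 6 counts in any library.

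The 250 bases before the transcription start are shown for the 4 genes that the RefSeq table of promoters (GRCm38.p6) holds, because these 4 include the highest and the lowest of the 6 levels per kb of exon. They are chr7:29125152-29125401 (minus strand) for *Ryr1*, chr13:12106946-12107195 (minus) for *Ryr2*, chr6:146502224-146502473 (minus) for *Itpr2*, and chr17:27057054-27057303 (plus) for *Itpr3*. Capitals mark the GC box GGGCGG on either strand, the letters that Sp1 family factors are known to bind.
Ryr1: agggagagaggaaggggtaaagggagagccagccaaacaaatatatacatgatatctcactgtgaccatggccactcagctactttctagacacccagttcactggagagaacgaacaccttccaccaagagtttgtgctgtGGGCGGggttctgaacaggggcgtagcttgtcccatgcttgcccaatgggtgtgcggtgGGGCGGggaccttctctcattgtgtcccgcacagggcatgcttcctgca
Ryr2: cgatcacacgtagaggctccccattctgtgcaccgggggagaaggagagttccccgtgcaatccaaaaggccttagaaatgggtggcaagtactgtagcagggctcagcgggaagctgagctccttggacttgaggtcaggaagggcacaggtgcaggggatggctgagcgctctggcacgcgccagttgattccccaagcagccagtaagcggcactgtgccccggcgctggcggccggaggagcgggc
Itpr2: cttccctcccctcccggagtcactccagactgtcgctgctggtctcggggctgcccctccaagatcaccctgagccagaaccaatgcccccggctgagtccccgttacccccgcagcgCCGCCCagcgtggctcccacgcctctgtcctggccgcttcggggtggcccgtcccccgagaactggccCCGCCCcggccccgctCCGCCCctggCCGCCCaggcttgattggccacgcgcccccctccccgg
Itpr3: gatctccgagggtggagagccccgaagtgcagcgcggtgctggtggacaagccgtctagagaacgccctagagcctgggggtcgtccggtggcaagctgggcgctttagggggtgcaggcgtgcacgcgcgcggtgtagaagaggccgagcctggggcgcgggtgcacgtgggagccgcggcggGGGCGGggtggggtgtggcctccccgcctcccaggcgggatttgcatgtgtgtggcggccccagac
The GC box was in 32.7% of the 32851 windows of this length in the table. It occurred 4 times upstream of *Itpr2*, 2 times upstream of *Ryr1*, 1 time upstream of *Itpr3*, and 0 times upstream of *Ryr2*, so its number did not follow the order of the levels given below. CpG dinucleotides numbered 6 in the *Ryr1* window, 14 in that of *Ryr2*, 22 in that of *Itpr2*, and 25 in that of *Itpr3*, against a median of 6 over the table. These matches describe the letters and not sites of binding.

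Library totals lay between 27850565 and 48097947 counts, with a median of 33214511. Hindbrain markers summed to between 569 and 751 CPM (counts scaled to library size after TMM normalization), forebrain markers to at most 13.3 CPM, and Hox genes of the thoracic and lumbar spinal cord to at most 0.523 CPM, beside a deposited extraction text that names spinal cords. The library labelled morphine male 6 had *Xist*, the RNA of the inactive X chromosome, at 380 CPM, where the other 5 males had at most 2.71 CPM and the 6 females at least 547 CPM, and it had the Y-linked *Ddx3y* at 12.8 CPM, where the other males had at least 118 CPM. It was kept in its labelled group. In bulk tissue, fewer cells of a type and less RNA per cell cannot be told apart.

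Among the ryanodine receptors *Ryr2* predominated. Per kb of exon, it stood at 5.01 ± 0.623 CPM per kb (SD, n = 12), *Ryr3* at 1.92 ± 0.387, and *Ryr1* at 0.0665 ± 0.021. *Ryr2* therefore made up 71.8% of the summed ryanodine receptor level per kb, between 68.8% and 76% in single mice, *Ryr3* made up 27.2%, and *Ryr1* 0.982%. Among the IP3 receptors, *Itpr2* stood at 4.64 ± 0.814 CPM per kb (SD, n = 12), *Itpr1* at 3.03 ± 0.605, and *Itpr3* at 0.53 ± 0.195. *Itpr2* was 56.5% of the summed IP3 receptor level per kb, *Itpr1* 37%, and *Itpr3* 6.51%. *Ryr2* was at the 59.6th percentile of the levels per kb of the 18012 genes tested, and *Ryr1* was at the 0.566th percentile.

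The order of the middle genes depended on the length used. *Ryr2* was above *Itpr2* in 8 of 12 libraries per kb of merged exon, so these neighbours were not separated on that scale, and in 12 of 12 per kb of the longest transcript. *Itpr2* was above *Itpr1* in 12 of 12 libraries on the first scale and in 8 of 12 on the second, where their means were 5.88 and 5.62 CPM per kb. *Itpr1* was above *Ryr3*, *Ryr3* above *Itpr3*, and *Itpr3* above *Ryr1* in 12 of 12 libraries on both scales.

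The levels of single mice are given in CPM. *Ryr2*, the cardiac and neuronal form, was at 136, 153, and 174 CPM in saline females 4, 5, and 6 and at 133, 154, and 126 CPM in morphine females 1, 2, and 3. It was at 126, 115, and 148 CPM in saline males 1, 2, and 3 and at 171, 153, and 143 CPM in morphine males 4, 5, and 6. The groups of each sex overlapped, in females between 136 and 154 CPM and in males between 143 and 148 CPM.

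*Ryr3*, the widely distributed minor form, was at 28.0, 36.1, and 49.2 CPM in saline females and at 37.7, 45.1, and 25 CPM in morphine females. It was at 32.8, 27.8, and 34.0 CPM in saline males and at 41.6, 41.9, and 38.1 CPM in morphine males. The 3 morphine males were above the 3 saline males, while both the lowest and the highest mouse of the 12 were females.

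*Ryr1*, the skeletal muscle form, rested on 28 to 114 counts per library. It was at 1.34, 1.19, and 1.10 CPM in saline females, 0.861, 1.10, and 1.43 CPM in morphine females, 1.61, 2.49, and 1.04 CPM in saline males, and 1.93, 1.54, and 1.80 CPM in morphine males. Saline males spanned the range of the morphine males, with the highest mouse of all 12 in saline male 2.

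*Itpr1*, the Purkinje cell and neuronal form, was at 51.6, 42.9, and 62.7 CPM in saline females and at 45.6, 54.8, and 44.9 CPM in morphine females. It was at 56.0, 55.6, and 54.3 CPM in saline males and at 58.2, 85.5, and 53.9 CPM in morphine males. Morphine male 5 stood apart, and the other 11 mice lay between 42.9 and 62.7 CPM.

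*Itpr2*, the astrocyte and heart form, was at 55.2, 79.1, and 78.3 CPM in saline females, 44.8, 81.4, and 67.5 CPM in morphine females, 54.3, 71.2, and 65.6 CPM in saline males, and 81.6, 78.4, and 67.1 CPM in morphine males. Treatment groups overlapped in both sexes. *Itpr3*, the epithelial form, was at 3.47, 4.47, and 3.48 CPM in saline females, 3.60, 5.01, and 3.67 CPM in morphine females, 6.94, 8.95, and 2.79 CPM in saline males, and 4.93, 4.20, and 5.90 CPM in morphine males. Its lowest and its highest mouse of the 12 were both saline males.

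**Figure D1:**
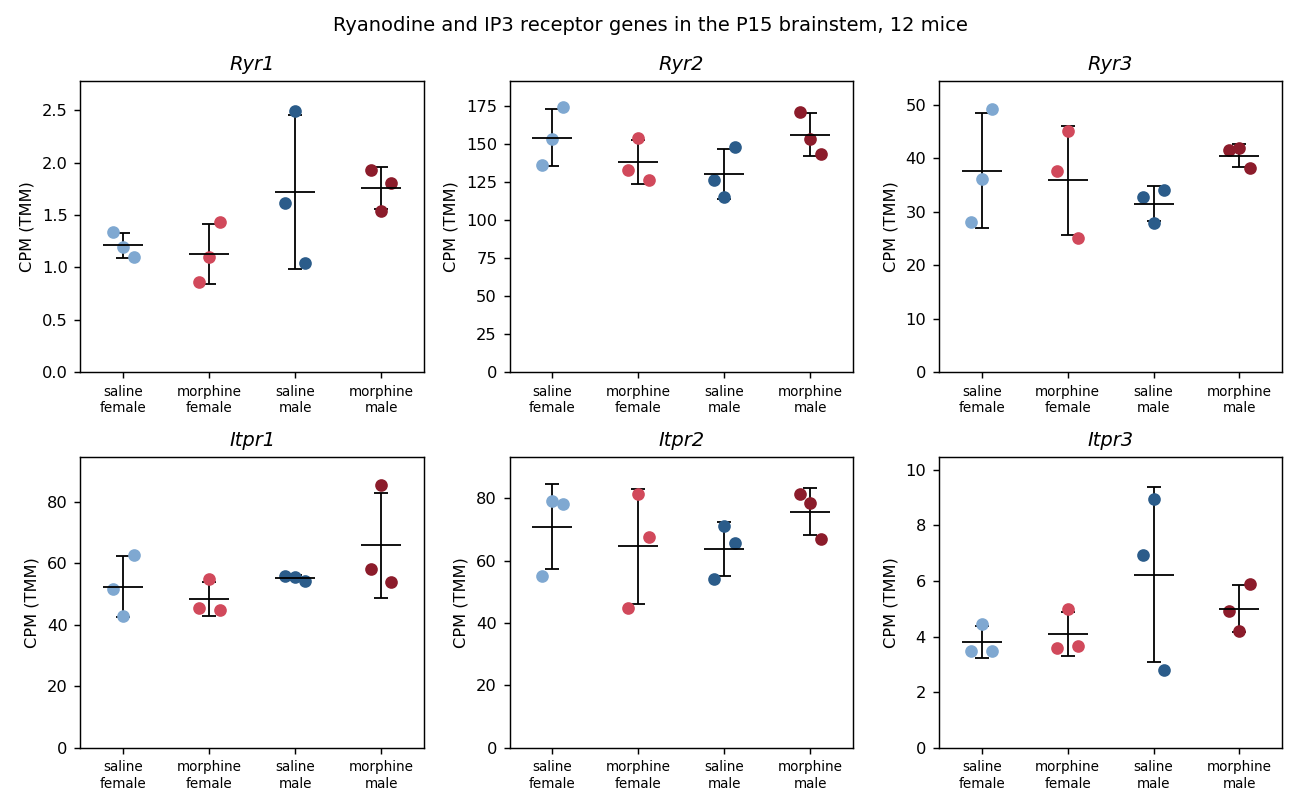
Level of each gene in CPM after TMM normalization (vertical axis, from 0), 1 panel per gene; points are single mice, and the long tick and bars are the mean ± SD of the 3 mice of a group. Saline and morphine mice overlap in every panel except for *Ryr3* in males, where the morphine mice sit between 38.1 and 41.9 CPM and the saline mice between 27.8 and 34.0 CPM.

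The first question was whether morphine moved these genes across both sexes. Genes were called when the unadjusted *p* of edgeR's quasi-likelihood test was under 0.05 and the absolute log2 fold change, morphine over saline, was over 0.26. In the sex-combined comparison with sex as a covariate, 0 of the 6 genes passed, where 1.18% of all 18012 genes did. The levels of the 2 treatment groups did not overlap for 0 of the 6 genes and for 0.0389% of all genes. Log2 fold changes ran from -0.09 (standard error 0.24) for *Itpr3* to 0.16 (standard error 0.17) for *Ryr3*, with unadjusted *p* values from edgeR between 0.371 and 0.915 and an adjusted *p* of 1 for each. The median over the 6 genes was 0.06, against -0.02 over all genes. The 95% confidence intervals were narrowest for *Ryr2*, from -0.18 to 0.30, and widest for *Itpr3*, from -0.60 to 0.41, and changes within these bounds could not be told from 0.

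In females alone, 0 of the 6 genes passed, where 1.81% of 18109 genes did, and 0 of the 6 had groups that did not overlap, against 5.65% of all genes. *Itpr3* had a log2 fold change of 0.10, and the other 5 genes had negative ones, between -0.08 (*Ryr3*) and -0.17 (*Ryr2*, standard error 0.12), each with an adjusted *p* of 1 from edgeR. The median was -0.12, against -0.01 over all genes. The interval of *Ryr2* ran from -0.44 to 0.10 and that of *Ryr3* from -0.62 to 0.46.

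In males alone, *Ryr3* was higher in morphine mice and was the 1 gene of 6 that passed, where 2.99% of 18166 genes did. The mean of the 3 morphine males was 40.5 ± 2.10 CPM (SD), above the 31.5 ± 3.32 CPM (SD) of the 3 saline males. The log2 fold change was 0.35 (standard error 0.15, 95% interval 0.01 to 0.70, 1.28-fold), with an unadjusted *p* of 0.0466 and an adjusted *p* of 1 in edgeR's quasi-likelihood test. It was also the 1 gene of 6 whose groups did not overlap, against 9.1% of all genes. For *Ryr2* the value was 0.25 (log2, standard error 0.15), *Itpr1* 0.24, *Itpr2* 0.24, *Ryr1* 0.02, and *Itpr3* -0.32 (standard error 0.40), and none of these passed, with an adjusted *p* of 1 each from edgeR. The median over the 6 genes was 0.24, against -0.06 over all genes.

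The call for *Ryr3* in males was not stable. Its log2 fold change stayed between 0.26 and 0.45 when each male was left out in turn, but it passed in 1 of these 6 fits, the one without saline male 3. Without morphine male 6 it was 0.39 with an unadjusted *p* of 0.086 and an adjusted *p* of 1 from edgeR. Without saline male 3, 28.6% of all genes passed in the fit of the other 5 males, as did *Ryr3* (0.45, edgeR adjusted *p* = 0.0406), *Ryr2* (0.40, adjusted *p* = 0.0482), and *Itpr3* (-0.63, adjusted *p* = 0.0816).

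**Figure D2:**
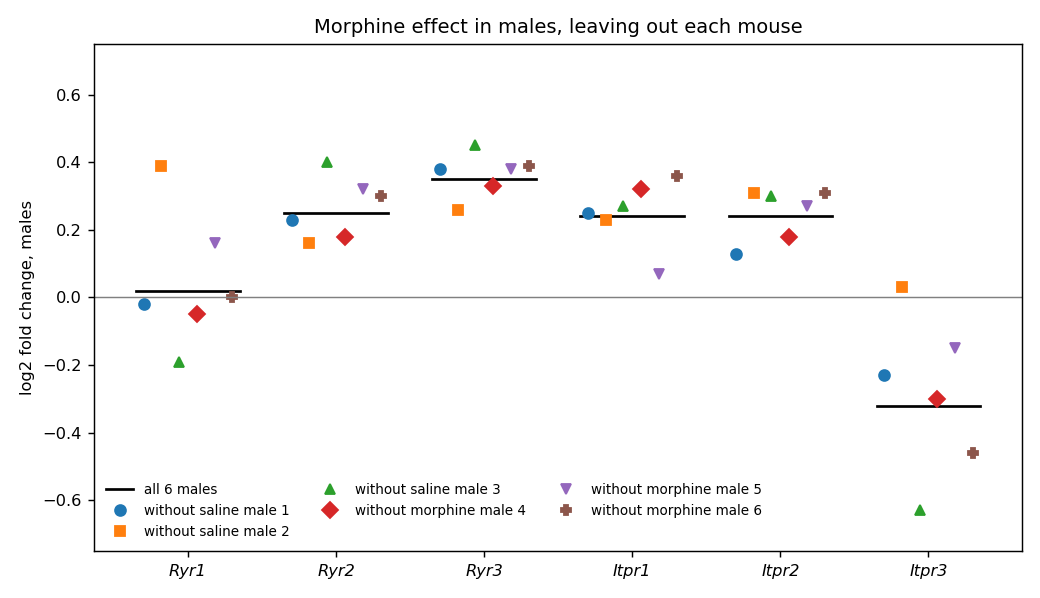
Log2 fold change of each gene in males, morphine over saline (vertical axis), with all 6 males (black lines) and with each mouse left out (symbols). *Ryr3* stays between 0.26 and 0.45, *Ryr1* and *Itpr3* change sign, and *Itpr1* falls to 0.07 without morphine male 5.

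The next question was whether the morphine effect differed between the sexes. *Ryr2* was the 1 gene of 6 for which the male change less the female change passed, at 0.44 (standard error 0.20, 95% interval 0.02 to 0.87), where 2.94% of 19027 genes passed. Its *p* was 0.0422 and its adjusted *p* 0.985 in the edgeR quasi-likelihood test of the interaction. Mean *Ryr2* was 130 ± 16.6 CPM (SD, n = 3) in saline males and 156 ± 14.1 in morphine males, and 154 ± 18.8 in saline females and 138 ± 14.7 in morphine females. The difference of the effects was 0.45 (standard error 0.32) for *Ryr3*, 0.40 for *Itpr2*, 0.38 for *Itpr1*, 0.15 for *Ryr1*, and -0.40 for *Itpr3*, and these did not pass, so that the effect on *Ryr3* was not shown to differ between the sexes although it passed in males alone. The median was 0.39, against -0.03 over all genes. *Ryr2* passed in 4 of the 12 fits that left out 1 mouse, with values from 0.31 to 0.53. These were the fits without saline male 3, saline female 4, morphine female 2, and morphine male 6 (0.50). In them 24.1%, 4.89%, 4.41%, and 3.39% of all genes passed, each above the 2.94% of the fit with all mice.

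**Figure D3:**
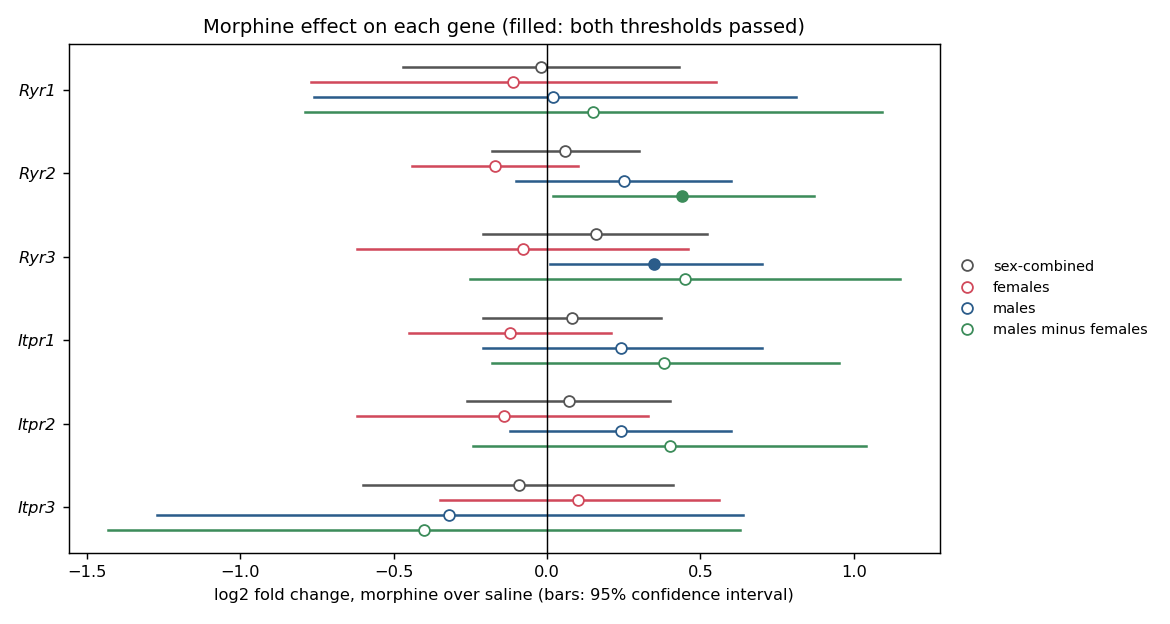
Log2 fold change of each gene, morphine over saline, with its 95% confidence interval (horizontal axis), in both sexes together, in females, in males, and as the change in males minus that in females; filled circles passed both thresholds. The filled circles are *Ryr3* in males (0.35) and *Ryr2* in the difference between the sexes (0.44), and both intervals end near 0.

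The 2 genes that passed follow the share of each library that fell on long genes. Genes with 8 kb or more of exon took between 26.2% (morphine female 3) and 30.3% (saline female 6) of the counts of a library. The share was 28.5% to 30% in morphine males, 26.8% to 29% in saline males, 26.2% to 29.8% in morphine females, and 27.4% to 30.3% in saline females. Over the 12 mice, log2 CPM of *Ryr3* had a Pearson *r* of 0.95 and a Spearman rho of 0.92 with this share (permutation *p* adjusted over the 6 genes 0.00012 and 0.00027), and *r* was 0.90 without morphine female 3 and saline male 2, the 2 mice farthest from the median share. For *Ryr2*, *r* was 0.90 and rho 0.92 (adjusted permutation *p* 0.00027 and 0.00027), and *r* was 0.87 without the same mice. The relation did not pass for *Itpr1* (*r* = 0.50), *Itpr2* (0.43), *Itpr3* (-0.30), or *Ryr1* (-0.35), with adjusted permutation *p* values for *r* between 0.192 and 0.336. Without the same mice, *r* was 0.47 for *Itpr1*, 0.67 for *Itpr2*, -0.25 for *Itpr3*, and -0.09 for *Ryr1*. How many of all genes follow this share as closely was not tested. The 3 genes most like *Ryr3* (*r* from 0.961 to 0.97) have 0.76 to 1.78 kb of exon, and the 3 most like *Ryr2* have 13.59 to 16.51 kb. The part of exon length in the levels of *Ryr2* and *Ryr3* was not tested.

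**Figure D4:**
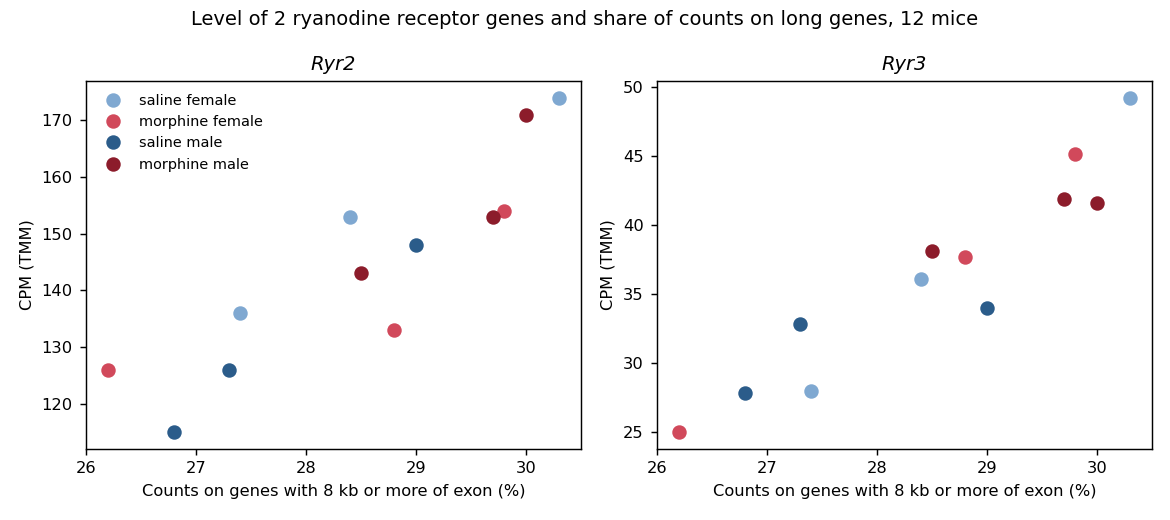
Level of *Ryr2* (left) and *Ryr3* (right) in CPM (vertical axes) against the percent of the counts of a library on genes with 8 kb or more of exon (horizontal axes), 1 point per mouse, coloured by group. Both genes are lowest near a share of 26.2% to 26.8% and highest at 30.3%, with mice of all 4 groups along the same course.

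Medians over all genes also differed with exon length. In males, the median log2 fold change was 0.01 for genes with 8 kb or more of exon, of which 53.9% were positive, and -0.14 for genes of 1 to 2 kb. In the interaction, the median log2 difference was 0.07 for the 2769 genes with 8 kb or more of exon, of which 67% were positive, -0.16 for the 2601 genes of 1 to 2 kb, and -0.02 for the 1283 genes under 1 kb, of which 49.3% were positive, so the values did not follow length through the shortest genes. Cytosolic ribosomal protein genes, which are short, lay the other way, with 79 of 80 lower in morphine males, 78 of 80 higher in morphine females, and medians of -0.37 and 0.20. With offsets for exon length and GC content, the log2 fold change of *Ryr3* in males was 0.25 (edgeR adjusted *p* = 0.472). The interaction of *Ryr2* was also 0.25 (edgeR adjusted *p* = 0.747). Both lay just under the fold-change threshold of 0.26 and so did not pass, whatever their unadjusted *p*. With these offsets 6.82% of all genes passed in males and 6.04% in the interaction. The part of RNA quality or library preparation in these values was not tested.

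The 6 genes did not vary as 1 group. Of the 15 pairs, *Ryr2* and *Ryr3* went together most closely over the 12 mice, with *r* = 0.83 and rho = 0.88 (adjusted permutation *p* 0.0175 and 0.0051) and *r* = 0.73 without saline male 2 and saline female 6. *Ryr1* and *Itpr3*, the 2 genes of lowest level, had *r* = 0.77 and rho = 0.69 (adjusted permutation *p* 0.0251 and 0.114), and *r* fell to 0.61 without saline male 2 and morphine female 1. The other 13 pairs had *r* between -0.43 and 0.58 and did not pass. The longest transcripts of *Ryr1* and *Itpr3* have 58.0% and 57.5% GC, against 49.0% to 49.6% in the rest of the 6 genes. With the offsets for exon length and GC content, the log2 fold change of *Itpr3* went from -0.32 to -0.06 in males and from -0.40 to -0.05 in the interaction. That of *Ryr1* went from 0.02 to 0.21 and from 0.15 to 0.42. Neither gene passed, and the part of GC content was not tested.

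Saline male 2, the highest mouse for both *Ryr1* and *Itpr3*, also had the highest summed level of skeletal muscle markers. The summed level of the 8 markers was 37.8 CPM there and between 1.47 and 6.56 CPM in the other 11 mice. *Acta1*, the actin of skeletal muscle, was at 11.1 CPM, where no other mouse exceeded 1.73 CPM. *Ckm*, the creatine kinase of muscle, was at 3.48 CPM, where no other mouse exceeded 0.131 CPM and several libraries had a count of 0. The markers *Myh8* (0.481 CPM) and *Myh3* (0.372 CPM) were not highest in this mouse. They were highest in morphine male 5 (0.852 CPM) and saline female 5 (0.517 CPM). Of the 6 skeletal muscle markers tested sex-combined 1 passed, *Myh8*, as higher in morphine mice (log2 fold change 0.74), beside 1.18% of all genes. *Myh8* rested on 6 to 26 counts per library, and 4 of the 6 markers had negative values. Without saline male 2, the log2 fold change in males was 0.39 for *Ryr1*, against 0.02 with it, and 0.03 for *Itpr3*, against -0.32. Neither passed in either fit, and the part of muscle tissue in these levels was not tested. The summed cardiac markers, of which *Myh6* made up the most, were at 4.95 to 12.8 CPM.

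Morphine male 5, the highest mouse for *Itpr1*, was also the highest for 5 of the 12 markers of cerebellar Purkinje and granule cells, *Pcp2*, *Car8*, *Gabra6*, *Cbln3*, and *Neurod1*, and other mice were highest for the other 7. *Car8*, which encodes an IP3 receptor binding protein of Purkinje cells, was at 38.9 CPM there and at 16.4 to 25.8 CPM in the other 11 mice. The Purkinje marker *Pcp2* was at 1.21 CPM, against 0.0583 to 1.01 CPM, and the granule cell marker *Gabra6* at 19.1 CPM, against 0.79 to 8.66 CPM. The summed level of the 7 Purkinje markers, of which several are also found in other brainstem neurons, did not set this mouse apart, with 413 to 469 CPM in morphine males and 371 to 472 CPM in the other groups. The 5 granule cell markers summed to 116 CPM in morphine male 5, the highest value, with 48.9 to 77.2 CPM in females and 58.3 to 68.5 CPM in saline males. The granule cell genes *Fat2* (23.5 CPM) and *Cbln1* (38.8 CPM) were not highest in this mouse but in morphine male 4 (24.7 CPM) and saline male 2 (42 CPM). *Gabra6*, *Cbln3*, and *Fat2* passed as higher in morphine males, 3 of the 5 granule cell markers beside 2.99% of all genes, and they also passed in the sex-combined comparison, beside 1.18%. Without morphine male 6, 4 of the 5 passed in males, beside 2.47% of all genes. Without morphine male 5, the log2 fold change of *Itpr1* in males was 0.07. The part of cerebellar tissue in the level of *Itpr1* was not tested.

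**Figure D5:**
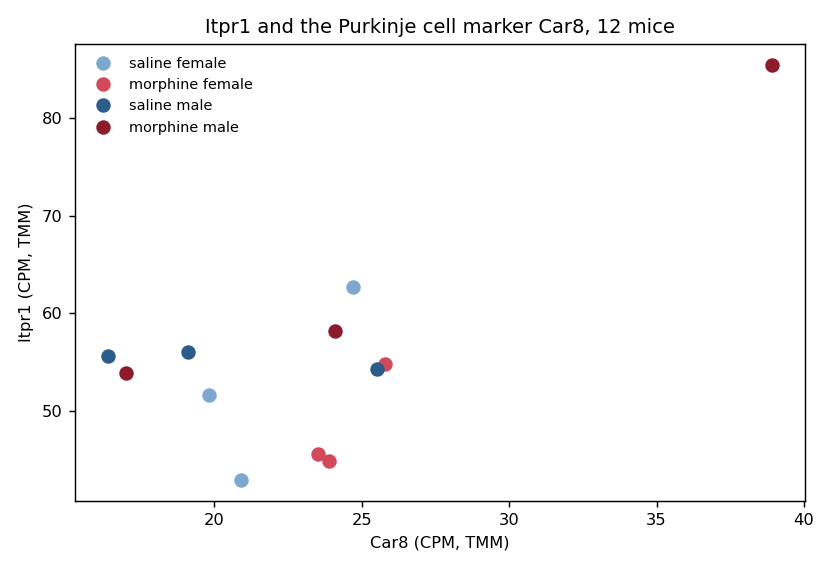
*Itpr1* (vertical axis, CPM) against the Purkinje cell marker *Car8* (horizontal axis, CPM), 1 point per mouse, coloured by group. Morphine male 5 lies alone at 85.5 CPM of *Itpr1* and 38.9 CPM of *Car8*, and the other 11 mice hold *Itpr1* between 42.9 and 62.7 CPM without a visible trend.

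Markers of other cell types differed in their course. Choroid plexus markers summed to between 8.57 and 821 CPM over the mice, and 3 of the 5 passed as higher in morphine males, beside 2.99% of all genes. Without morphine male 6, 5 of the 5 passed, beside 2.47% of all genes in that fit. Of the 6 astrocyte markers 0 passed in any comparison, with a median of -0.22 in males and 0.01 in females, while *Itpr2*, the form known from astrocytes, had 0.24 and -0.14. Among the 5 tested markers of smooth muscle and pericytes, 2 passed as lower in morphine females, as did 1 of the 4 meningeal fibroblast markers, beside 1.81% of all genes in females. Of the 5 oligodendrocyte markers 1 passed as lower in morphine males, with and without morphine male 6, beside 2.99% and 2.47% of all genes. Among the 6 neuronal, 5 endothelial, and 5 microglial markers, 0 passed in either sex.

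The genes around the receptors were read from lists by role, 75 genes of which 72 were tested in the comparison of both sexes. In the sex-combined and the female comparisons 0 of the 72 passed, and in males 2 passed, both higher in morphine mice. Beside 2.99% of all genes, 2 of 72 is near the background and is no result about these genes. In the difference between the sexes 2 of 73 passed, which is also near the background, 2.94% of all genes. The medians in the sex-combined, female, and male comparisons were -0.04, 0.01, and -0.10, against -0.02, -0.01, and -0.06 over all genes.

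*Bst1*, which encodes an ectoenzyme that can form cyclic ADP-ribose, an activator of ryanodine receptors, was at 0.459, 0.472, and 0.565 CPM in morphine males and at 0.209, 0.263, and 0.306 CPM in saline males. The log2 fold change was 0.93 (standard error 0.31), with an unadjusted *p* of 0.0205 and an adjusted *p* of 1 from edgeR. The males minus females difference was 1.32 (standard error 0.54), with an unadjusted *p* of 0.0304 and an adjusted *p* of 0.985 from edgeR. The groups of males did not overlap, as for 9.1% of all genes, at a level below 0.6 CPM. *Cd38*, the main brain enzyme of the same product, had -0.30 (log2, standard error 0.25) in males and -0.15 in females and did not pass.

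*Inpp5b*, which encodes an inositol polyphosphate 5-phosphatase, was at 38.3, 39.5, and 40.9 CPM in morphine males and at 30.6, 31.6, and 33.5 CPM in saline males. The log2 fold change was 0.30 (standard error 0.13), with an unadjusted *p* of 0.0476 and an adjusted *p* of 1 from edgeR. The difference between the sexes was 0.44 (standard error 0.15), with an unadjusted *p* of 0.0134 and an adjusted *p* of 0.985 from edgeR. The groups of males did not overlap, as for 9.1% of all genes. The other 17 genes that make or break IP3, among them the phospholipases C and the Gq subunits, did not pass in any of the 4 comparisons. In males *Bst1* passed in 2 of the 6 fits that left out 1 mouse, those without saline male 3 and morphine male 5, and *Inpp5b* in 1 of the 6, without saline male 3. Of all genes 28.6% passed without saline male 3 and 1.61% without morphine male 5. Without morphine male 6 they were at 0.96 and 0.27 and did not pass. In the difference between the sexes *Bst1* and *Inpp5b* were at 1.36 and 0.42 without morphine male 6 and passed, beside 3.39% of all genes.

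Proteins that bind the channels did not pass. Of all genes tested, 62.4% had negative values in males and 48.2% positive ones in females. Of the 19 tested partners of ryanodine receptors, which include calmodulins, junctophilins, and Homer proteins, 17 had negative values in males with a median of -0.18, and 15 had positive values in females with a median of 0.04. *Fkbp1b*, whose product is the calstabin bound to RyR2, stood at -0.42 on the log2 scale in males (standard error 0.18, edgeR adjusted *p* = 1), and its mean was 19.8 ± 3.13 CPM (SD) over the 3 morphine males, below 26.3 ± 3.01 CPM (SD) over the 3 saline males. Of the 17 tested partners of IP3 receptors, 15 were negative in males (median -0.12) and 11 in females (median -0.04). Of the 8 calcium-binding proteins of the endoplasmic reticulum lumen, 7 were negative in males (median -0.09) and 8 in females (median -0.04).

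The genes that refill the store did not pass either. *Atp2a2*, which encodes the main endoplasmic reticulum calcium pump of the brain, had log2 fold changes of 0.00 in both sexes together, -0.14 in females (standard error 0.09), and 0.11 in males (standard error 0.16). *Stim1*, the sensor of store calcium, had 0.00, -0.06, and 0.04. The 7 tested genes of this list had a median of 0.10 in females and -0.09 in males.

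The genes most like each receptor gene in level over the 12 mice, among the other 18011 genes tested, were as follows by Pearson *r* of log2 CPM. For *Ryr2* they were *Ksr2* (0.958), *Prrc2c* (0.956), and *Nsd3* (0.95), whose exons span 13.59, 16.09, and 16.51 kb. For *Ryr3* they were the noncoding or unclassified genes A230006K03Rik (0.97), Gm43858 (0.963), and 2410021H03Rik (0.961), with 0.76 to 1.78 kb of exon. For *Ryr1* they were *Mpp3* (0.957), *Ckap4* (0.934), and *Ssc5d* (0.924), and for *Itpr3* they were *Rere* (0.976), *Tln1* (0.974), and *Unc93b1* (0.973). For *Itpr2* they were *Sf1* (0.932), *Fn1* (0.902), and *Tstd1* (0.901), and for *Itpr1* they were *Adamtsl3* (0.88), *Pcdhb17* (0.853), and *Chst15* (0.85). These values describe the same 12 libraries, which share depth and composition, and carry no test.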

How the data were processed

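The deposited values are counts of reads per gene that the authors made with Trimmomatic, STAR (mm10), and featureCounts over the exons of an Ensembl annotation. They are whole numbers with differing totals and were treated as raw counts. No strand setting is given in the sources used here. Each library is 1 mouse, and dam, a covariate of the study, is in no label and was left out.

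The whole table was fitted in edgeR 4.0.16 (R 4.3.3) by quasi-likelihood after filterByExpr and TMM scaling, with Benjamini-Hochberg adjustment over the genes kept. Fits were sex-combined (sex as a covariate), females, males, and the interaction. The thresholds are those of the paper for the sex-combined, female, and male comparisons. The same thresholds were used for the interaction, for which the paper gives none. Levels are CPM after TMM normalization over the 12 libraries, with a prior count of 2 for logs. Correlations had 100000 resamples. The fits were tested on simulated data.

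The genes, lists, and tests were chosen with earlier results of these data known. The paper reports *Ryr2* and *Ryr3* as significantly upregulated in morphine males from these libraries, so their values in males are not independent evidence. Here *Ryr2* did not pass in males (0.25, unadjusted *p* = 0.131 in edgeR's quasi-likelihood test). With exactTest, which the paper used, neither gene passed both thresholds in males (unadjusted *p* = 0.199 for *Ryr2* and 0.0921 for *Ryr3*). The comparison is not at a like threshold. The paper names both genes within a pathway of its network analysis, which took genes by a looser cut on unadjusted *p* alone. With scaling by total counts, both genes passed in males in the quasi-likelihood test. Named were all 6 genes, partner genes past both thresholds (at most 8 per fit), *Atp2a2*, *Stim1*, *Fkbp1b*, *Cd38*, the 3 genes most like each member, and *Xist* and *Ddx3y*. Marker genes and *Aven* named beyond this were chosen after their values were seen. All 55418 symbols were found in GENCODE M21. Alternatives were exactTest, DESeq2 1.42.0, DESeq2's size factors, total-count scaling, 2 other filters, loess offsets (span 0.5) for exon length and GC content, other covariates, a replicate block, p alone, and leaving out each mouse. Alternatives for *Bst1* and *Inpp5b* were added after seeing the data.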

Additional observations from a re-analysis of the deposited data

Results flagged for a closer look

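In 12 groups of 6 saline or 6 morphine mice, 1 for each gene and treatment, the highest and the lowest mouse were checked for a gap to the next that is large against the range of the group. Chance gives about 1 such mouse in 20 groups of independent values from a single population. The groups here pool females and males and come from the same libraries, so that rate is only a rough guide. *Ryr3* in morphine female 3 was at 25 CPM, the lowest of the morphine mice, and the next was at 37.7 CPM, a gap of 0.633 of the range. *Itpr1* in morphine male 5 was at 85.5 CPM, the highest of the morphine mice, and the next was at 58.2 CPM, a gap of 0.672 of the range.

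The morphine effect in males minus that in females had an unadjusted *p* under 0.05 in edgeR's interaction test for *Ryr2* among the 6 receptor genes and for *Bst1* and *Inpp5b* among the partner genes, and for none of these an adjusted *p* under 0.05. The differences on the log2 scale were 0.44 for *Ryr2*, 1.32 for *Bst1*, and 0.44 for *Inpp5b*. Of the 73 partner genes tested in the interaction 2 passed, which is near the 2.94% of all genes that passed.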

How the results depend on the processing

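The number of the 6 genes that passed was 0 under every alternative in the sex-combined and the female comparisons, including the fit with a replicate block, in which 165 of all genes passed. Same-numbered mice did not deviate together, with 1 of 6 pairs over 0.1 and a range of *r* from -0.378 to 0.179, so the numbers do not pair the mice. In males it was 3 with scaling by total counts (*Ryr2*, *Ryr3*, and *Itpr2*) and 0 with exactTest, with no filter on low counts, with length and GC offsets, and with the contrast from all 12 mice, against 1. In the interaction it was 0 with the Wald test of DESeq2, with DESeq2's size factors, with no filter, and with length and GC offsets, against 1. Leaving out 1 mouse gave 0 to 3 genes in males and 0 to 2 in the interaction, the highest in both without saline male 3, which leaves 2 saline males. Scaling by total counts moved the median of all genes in males from -0.06 to 0.06, and the share of passing genes that were higher in morphine males from 64.3% to 91.3%. That share went from 50% to 72.6% in the sex-combined comparison and from 54.7% to 81.2% in the interaction.

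The number of all genes passing, 212 sex-combined, 328 in females, 543 in males, and 559 in the interaction, was 754, 1094, 985, and 1665 with no filter on low counts. It was 218 in females with the contrast from all 12 mice, and 1239 in males and 1150 in the interaction with length and GC offsets. Leaving out 1 mouse gave 162 (without morphine male 4) to 436 (without saline male 3) sex-combined, 208 (without morphine female 1) to 1482 (without saline female 4) in females, 253 (without morphine male 4) to 5341 (without saline male 3) in males, and 290 (without saline female 6) to 4695 (without saline male 3) in the interaction.

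The log2 fold changes that reversed sign had not passed. Sex-combined, *Ryr1* was at 0.03 with total counts and 0.01 with length and GC offsets, and in females *Itpr3* was at 0.00 with the offsets. Leaving out 1 mouse gave, sex-combined, -0.17 to 0.13 for *Ryr1*, -0.01 to 0.11 for *Ryr2*, -0.04 to 0.15 for *Itpr1*, 0.00 to 0.16 for *Itpr2*, and -0.25 to 0.08 for *Itpr3*. In females the ranges were -0.31 to 0.05 for *Ryr1*, -0.28 to 0.17 for *Ryr3*, -0.24 to 0.04 for *Itpr1*, -0.34 to 0.07 for *Itpr2*, and -0.07 to 0.24 for *Itpr3*. In males they were -0.19 to 0.39 for *Ryr1* and -0.63 to 0.03 for *Itpr3*, and in the interaction -0.12 to 0.52 for *Ryr1*. The causes were not tested. The low counts of *Ryr1* and *Itpr3*, from 28 and 91 per library, limit what can be said of them. Among the partner genes, *Bst1* and *Inpp5b* kept their direction under the alternatives run. In males *Bst1* did not pass with DESeq2 or with no filter, and *Inpp5b* did not pass with exactTest or with no filter. In the interaction *Bst1* passed in 3 of 5 other settings and in 6 of 12 fits without 1 mouse (1.01 to 1.80), and *Inpp5b* in 5 of 6 and in 10 of 12 (0.38 to 0.49). In those 12 fits between 1.49% and 24.1% of all genes passed.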
